A study of Homo sapiens with 6 samples.

Results

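The Toll-like receptors TLR1, TLR2, TLR4, TLR6, TLR7 and TLR8, the lipopolysaccharide co-receptors CD14 and LY96, the adaptor MYD88 and the kinase IRAK1 were followed in leukaemia cells exposed to an inhibitor of the Mediator kinases. Every probe set whose annotated gene symbol is, or lists, one of these 10 genes was taken, which gave 17 of 54613 probe sets. All 17 carried a single symbol. TLR4 had 4 probe sets, TLR6, TLR7, TLR8 and IRAK1 had 2 each, and the other 5 genes had 1 each.

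The cells were MOLM-14, a human line of acute myeloid leukaemia with an MLL-AF9 rearrangement, kept for 3 h with 25 nM cortistatin A (CA), a natural product that blocks the Mediator kinases CDK8 and CDK19. They were compared with MOLM-14 cells kept for 3 h with the solvent DMSO. Each group had 3 samples, each on its own Affymetrix U133 Plus 2.0 array, and both groups share the fusion and the growth medium. The wells were triplicates, and no label tells of separate cultures. The p-values therefore reflect only the spread among these 6 samples, part or all of which may be technical.

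Toll-like receptors are membrane proteins of monocytes, macrophages and other cells that recognise microbial molecules. TLR2 pairs with TLR1 or TLR6 on the cell surface to bind bacterial lipopeptides, TLR4 binds lipopolysaccharide with the help of LY96 and CD14, and TLR7 and TLR8 sense single-stranded RNA in endosomes. On binding, all of these receptors can recruit MYD88, which gathers IRAK kinases, and the signal runs through TRAF6 and TAK1 to NF-kB and to inflammatory genes such as TNF.

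The arrays were alike, with median log2 values from 5.03 to 5.08 and correlations between arrays from 0.996 to 0.998. The array of CA replicate 3 stood apart: on the first principal component, with 31.6% of the variance, its score was 33.8, while scores of the remaining 5 ran from -12.9 to 6.44. Of 8 measured markers of monocytic leukaemia, LYZ, CEBPA and FLT3 were bright, with mean log2 values of 12.4, 11.6 and 10.3, while CSF1R, at 5.86, and SPI1, at 5.43, lay close to the array medians. CEBPA itself was higher with CA (log2 change 0.48, adjusted p = 0.0173 over all genes), and the other 7 did not pass. CD14, itself a monocyte marker, lay below the array median on all 6 arrays. Of 17 measured markers of lymphoid, erythroid, megakaryocytic, epithelial and fibroblast cells, 0 passed limma at an adjusted p under 0.05, where 0.839% of all genes were called higher and 0.0556% lower, and without an adjustment 1 was higher and 1 was lower, where 7.09% and 4.5% of all genes were. Their mean log2 values ran from 2.63 for EPCAM to 9.26 for KRT18. Whether these markers were expressed was not tested, and a log2 value alone does not show it.

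TLR2 had the largest difference of the 17 probe sets. It lay at log2 values of 8.39, 8.32 and 8.27 in CA, against 8.05, 7.99 and 8.0 in DMSO. Every CA array was above every DMSO array, and the gap exceeded the spread within either group. The means were 8.33 ± 0.06 in CA and 8.01 ± 0.03 in DMSO (SD, n = 3 each), which is 1.25-fold higher with CA (95% confidence interval 1.13 to 1.37, log2 change 0.32 with SE 0.06). Over all probe sets the difference did not pass limma with Benjamini-Hochberg adjustment (adjusted p = 0.135), and over 19775 genes with 1 probe set each it lay just outside the threshold of 0.05 (adjusted p = 0.0553). Across the array 689 probe sets had a larger positive log2 change than TLR2. In such bulk cultures, more RNA per cell and more cells with the transcript cannot be told apart.

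**Figure D1:**
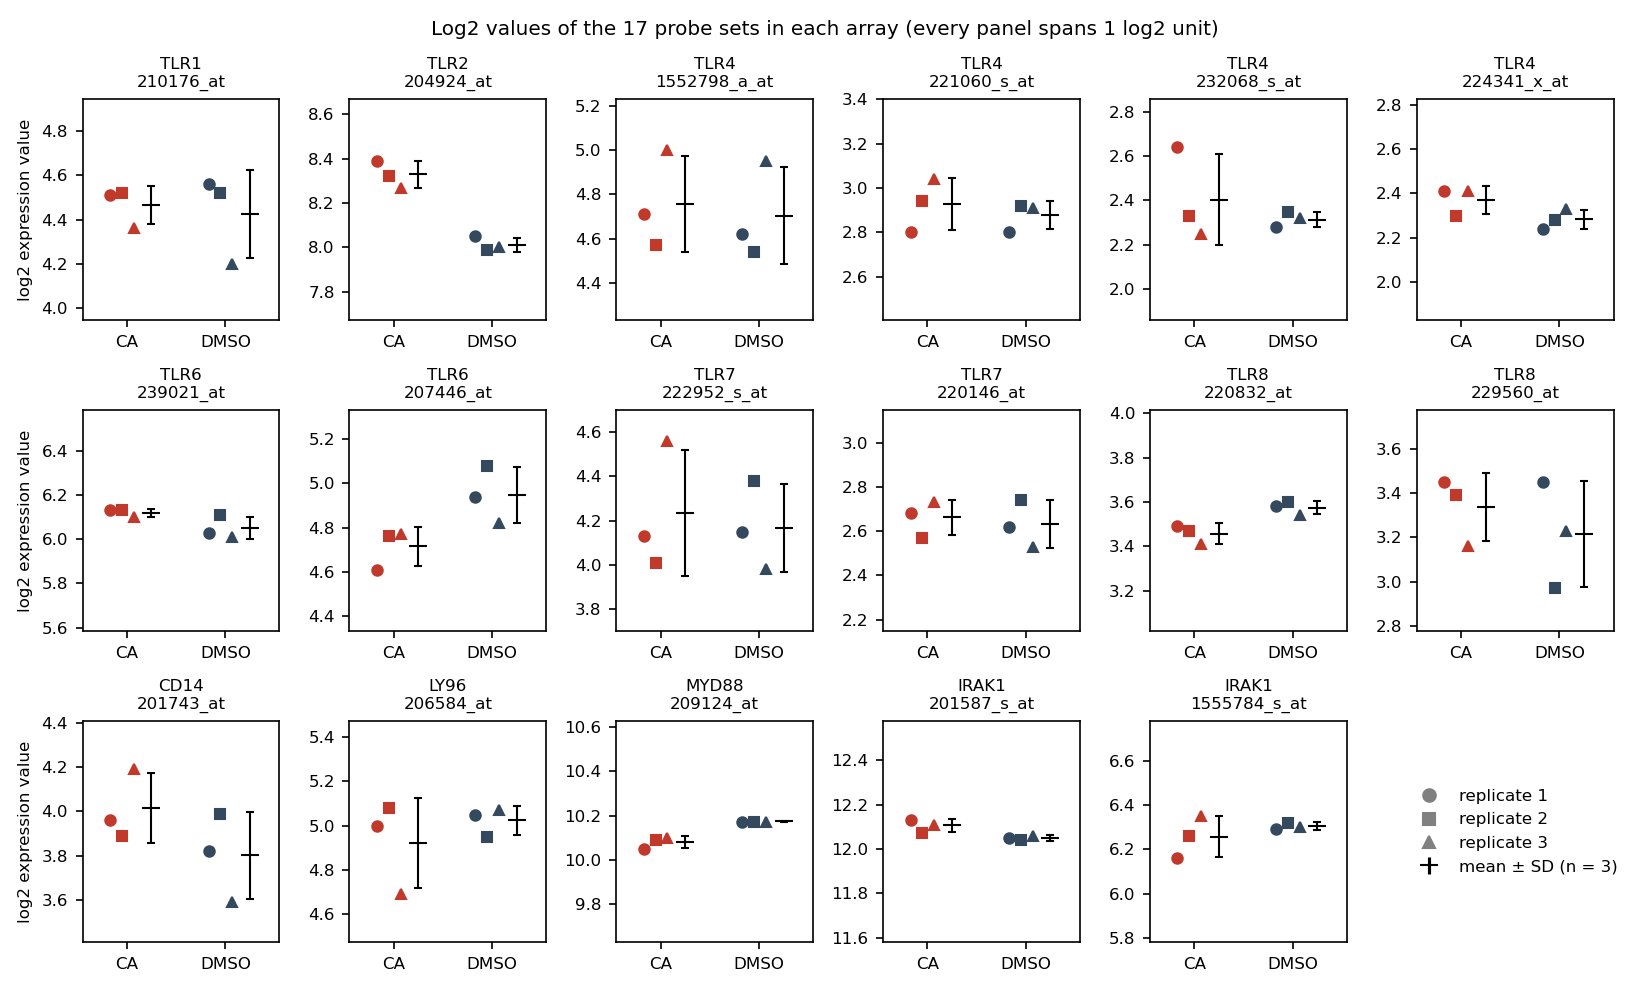
Log2 expression value (vertical axis, 1 log2 unit per panel) of each of the 17 probe sets in the 3 CA arrays (left, red) and the 3 DMSO arrays (right, dark blue), with the mean and SD of each group in black. TLR2 is the panel with the widest gap between groups, from 8.27 in the lowest CA array to 8.05 in the highest DMSO array.

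The call for TLR2 differed between settings, while its size varied little. The log2 change was 0.35 without CA replicate 3 (adjusted p = 0.167) and lay between 0.29 and 0.35 with any 1 array left out, where the adjusted p lay between 0.167 and 0.475. TLR2 passed when the variance followed an intensity trend in a robust fit (adjusted p = 0.00872), as it did when 27803 probe sets with a mean log2 value of at least 5 were tested (adjusted p = 0.0337), 5 of the 17 among them. Those 2 settings called 1.35% and 1.38% of the probe sets they tested.

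**Figure D2:**
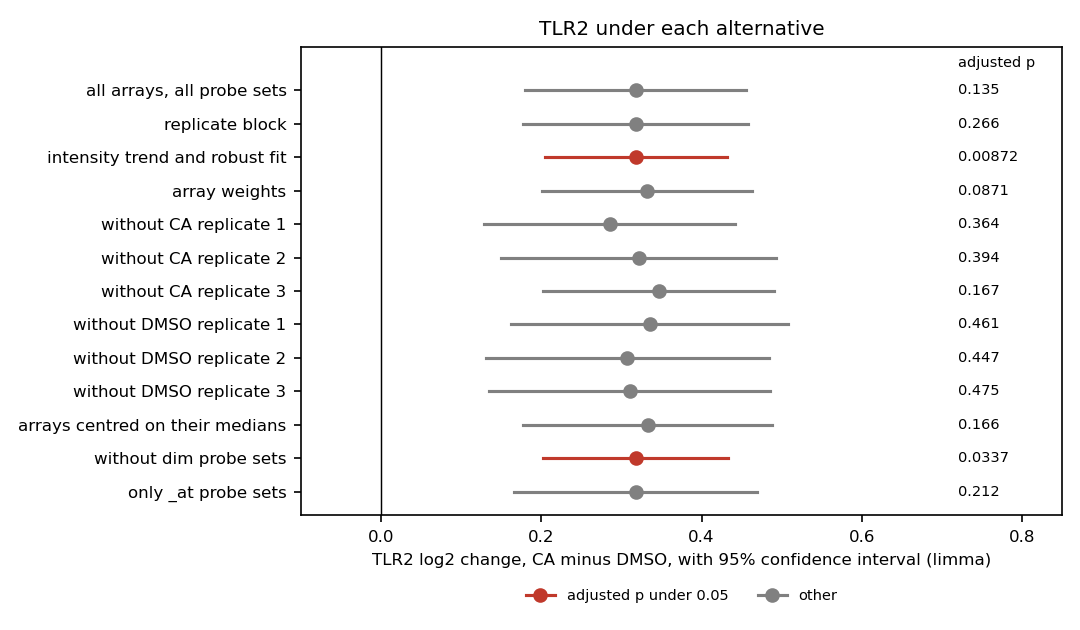
Log2 change of TLR2, CA minus DMSO (horizontal axis), with its 95% confidence interval from limma, with all arrays and all probe sets in the top line and under each alternative below it. The change stays between 0.29 and 0.35, and the adjusted p printed at the right is under 0.05 with the intensity trend and robust fit (0.00872) and without dim probe sets (0.0337).

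The promoters of TLR2 and MYD88 are shown because TLR2 had the largest difference and MYD88 is the adaptor that the receptors share. Each line gives the 250 bases before the RefSeq start of the gene on GRCh38.p14, for TLR2 chr4:153684030-153684279 on the plus strand and for MYD88 chr3:38138411-38138660 on the plus strand. Capitals mark any match, on either strand, to 5 searched motifs: a PU.1 core (GAGGAA), an NF-kB pattern (GGGNNNTTCC), a C/EBP pattern (TTGNNNCAA), an IRF pattern (GAAANNGAAA) and an Sp1 GC box (GGGCGG).
TLR2: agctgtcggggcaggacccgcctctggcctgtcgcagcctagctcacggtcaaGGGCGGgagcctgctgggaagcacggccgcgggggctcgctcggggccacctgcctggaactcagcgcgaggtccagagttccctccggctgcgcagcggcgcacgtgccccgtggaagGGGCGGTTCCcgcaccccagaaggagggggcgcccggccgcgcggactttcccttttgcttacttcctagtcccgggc
MYD88: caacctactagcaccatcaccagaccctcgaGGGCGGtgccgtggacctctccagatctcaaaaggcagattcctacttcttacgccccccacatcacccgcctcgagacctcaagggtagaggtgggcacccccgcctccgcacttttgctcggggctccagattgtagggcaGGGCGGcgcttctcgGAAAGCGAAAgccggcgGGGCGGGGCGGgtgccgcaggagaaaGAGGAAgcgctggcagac
The TLR2 window held the NF-kB pattern from position -78 to -69, where its first 6 bases are also a GC box, and a second GC box from -197 to -192. A narrower NF-kB pattern (GGGNNTTTCC) had no match in it. The wider NF-kB pattern was found in 5.67% and the narrower one in 1.73% of 35116 windows of the same length. MYD88 had an IRF pattern from -61 to -52, which 3.02% of all windows hold, a PU.1 core from -18 to -13 and 4 GC boxes, 2 of which share a base. A promoter sequence was matched for 7 of the 10 genes, the others being TLR1, TLR7 and LY96. Of these 7, TLR4, TLR6, CD14 and MYD88 held the PU.1 core (23.6% of all windows), TLR2, TLR4, MYD88 and IRAK1 held a GC box (42.6%), and none held the C/EBP pattern (4.30%). These matches describe letters only, and the expression values do not test them.

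The partners of TLR2 had smaller or opposite log2 changes, none of which passed over all probe sets. TLR1 had log2 values of 4.51, 4.52 and 4.36 in CA, against 4.56, 4.52 and 4.2 in DMSO, so the groups overlapped, with replicate 3 the lowest of each. Its log2 change was 0.04 (95% confidence interval -0.21 to 0.29, adjusted p = 0.940), and it was -0.077 without DMSO replicate 3. Whether the changes of TLR1 and TLR2 differ was not tested.

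The 2 probe sets of TLR6 had log2 changes of opposite sign. At 207446_at, TLR6 had log2 values of 4.61, 4.76 and 4.77 in CA, against 4.94, 5.08 and 4.82 in DMSO. The CA arrays lay below the DMSO arrays without overlap, and the level was close to the array medians, below them on 5 of 6 arrays. CA was 0.852-fold DMSO there (95% confidence interval 0.742 to 0.978), which did not pass over all probe sets (adjusted p = 0.523). At the brighter 239021_at the values were 6.13, 6.13 and 6.10 in CA and 6.03, 6.11 and 6.01 in DMSO, which overlapped, with a log2 change of 0.07 (adjusted p = 0.770). The log2 change at 239021_at exceeded that at 207446_at by 0.30, and the per-array differences between the probe sets did not overlap between groups (two-sided exact permutation p = 0.1, the smallest that 3 against 3 arrays allow, and 0.5 after Benjamini-Hochberg adjustment over 10 pairs of probe sets of the same gene). TLR1 and TLR6 are close paralogues, and how far their probe sets share transcripts was not tested.

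TLR4, the receptor for lipopolysaccharide, was dim at all 4 of its probe sets. Each lay below the array median on all 6 arrays. In mean log2 value 221060_s_at, 232068_s_at and 224341_x_at exceeded only 12.2%, 2.0% and 1.7% of all probe sets. At such levels, alike changes say little about TLR4. At the brightest, 1552798_a_at, the log2 values were 4.71, 4.57 and 5.0 in CA and 4.62, 4.54 and 4.95 in DMSO, and replicate 3 was the highest of each group. The means of 4.76 ± 0.22 in CA and 4.70 ± 0.22 in DMSO (SD, n = 3 each) differed by less than the spread between replicates. The log2 changes at the 4 probe sets of TLR4 were 0.05, 0.05, 0.09 and 0.09, none of which passed (adjusted p from 0.729 to 0.935). Without CA replicate 3 they were -0.064 at 1552798_a_at, -0.008 at 221060_s_at, 0.17 at 232068_s_at and 0.07 at 224341_x_at. Between the TLR4 probe sets the changes differed by at most 0.04 in log2 units, within the spread between arrays (exact permutation p from 0.7 to 1.0).

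CD14, which hands lipopolysaccharide to TLR4, had the largest log2 change after TLR2 and TLR6, but with a wide spread. Its log2 values were 3.96, 3.89 and 4.19 in CA and 3.82, 3.99 and 3.59 in DMSO. The groups overlapped, since DMSO replicate 2 was above CA replicates 1 and 2. The log2 change was 0.22 (95% confidence interval -0.071 to 0.50, adjusted p = 0.672), and it was 0.13 without CA replicate 3. LY96, the protein that forms the lipopolysaccharide site with TLR4, had 5.0, 5.08 and 4.69 in CA and 5.05, 4.95 and 5.07 in DMSO, and CA replicate 3 was the lowest array. Its log2 change was -0.10 (95% confidence interval -0.35 to 0.15, adjusted p = 0.818) and 0.013 without CA replicate 3.

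The RNA-sensing receptors TLR7 and TLR8 lay below the array median on all 6 arrays at each of their 4 probe sets. TLR8 at 220832_at had log2 values of 3.49, 3.47 and 3.41 in CA, against 3.58, 3.60 and 3.54 in DMSO. The CA arrays lay below the DMSO arrays without overlap, and the log2 change was -0.12 (95% confidence interval -0.25 to 0.013, adjusted p = 0.616). At 229560_at, TLR8 had 3.45, 3.39 and 3.16 in CA and 3.45, 2.97 and 3.23 in DMSO, so the groups overlapped and the log2 change of 0.12 had the opposite sign (adjusted p = 0.830). The per-array differences between these probe sets overlapped between groups (exact permutation p = 0.2). The smallest p that 3 against 3 arrays allow is 0.1, so the test could hardly tell the changes apart. TLR7 had 4.13, 4.01 and 4.56 in CA and 4.15, 4.38 and 3.98 in DMSO at 222952_s_at, where CA replicate 3 was the highest array. Its log2 changes were 0.07 there and 0.03 at 220146_at (adjusted p = 0.925 and 0.935), and without CA replicate 3 they were -0.093 and -0.006.

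MYD88 and the brighter probe set of IRAK1 were bright and tightly replicated. MYD88 had log2 values of 10.05, 10.09 and 10.10 in CA, against 10.17 in each of the 3 DMSO arrays. All CA arrays lay lower, by a small margin: CA was 0.937-fold DMSO (95% confidence interval 0.861 to 1.02, log2 change -0.093 with SE 0.05). The difference did not pass (adjusted p = 0.666), and limma's SE there exceeds the SDs of 0.027 in CA and 0.001 in DMSO because it draws on a spread pooled over all probe sets.

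IRAK1, the kinase that MYD88 recruits through IRAK4, had 12.13, 12.07 and 12.11 in CA at 201587_s_at, against 12.05, 12.04 and 12.06 in DMSO. The groups did not overlap, and the log2 change was 0.06 (95% confidence interval -0.065 to 0.18, adjusted p = 0.786). At 1555784_s_at the IRAK1 values were 6.16, 6.26 and 6.35 in CA and 6.29, 6.32 and 6.30 in DMSO, with a log2 change of -0.05 (adjusted p = 0.869). The 2 IRAK1 probe sets differed in change by 0.11 (exact permutation p = 0.1, the smallest possible, and 0.5 after adjustment over the 10 pairs).

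Of the 17 probe sets, 0 passed limma at an adjusted p under 0.05, a threshold that 0.22% of all 54613 probe sets passed. Without an adjustment, TLR2 was past 0.05 with CA higher and TLR6 at 207446_at with CA lower, where 4.91% and 3.71% of all probe sets were. In 5 of the 17 the groups did not overlap. CA was higher in 2 of them, TLR2 and IRAK1 at 201587_s_at, beside 8.96% of all probe sets, and lower in 3, TLR6 at 207446_at, TLR8 at 220832_at and MYD88, beside 6.55%. The median log2 change was 0.05, beside -0.0011 over all probe sets, and 12 of 17 changes were positive, beside 49.6% of all probe sets. Every probe set of TLR4 and TLR7 was among those 12, so they are not separate genes. Per gene, 7 of 10 changes were positive, beside 10224 of 19775. For each of the 17, the 95% confidence interval lay within a 1.5-fold difference either way. These intervals were not adjusted for the number of probe sets, and 10 of the 17 lay below the array median on all 6 arrays.

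**Figure D3:**
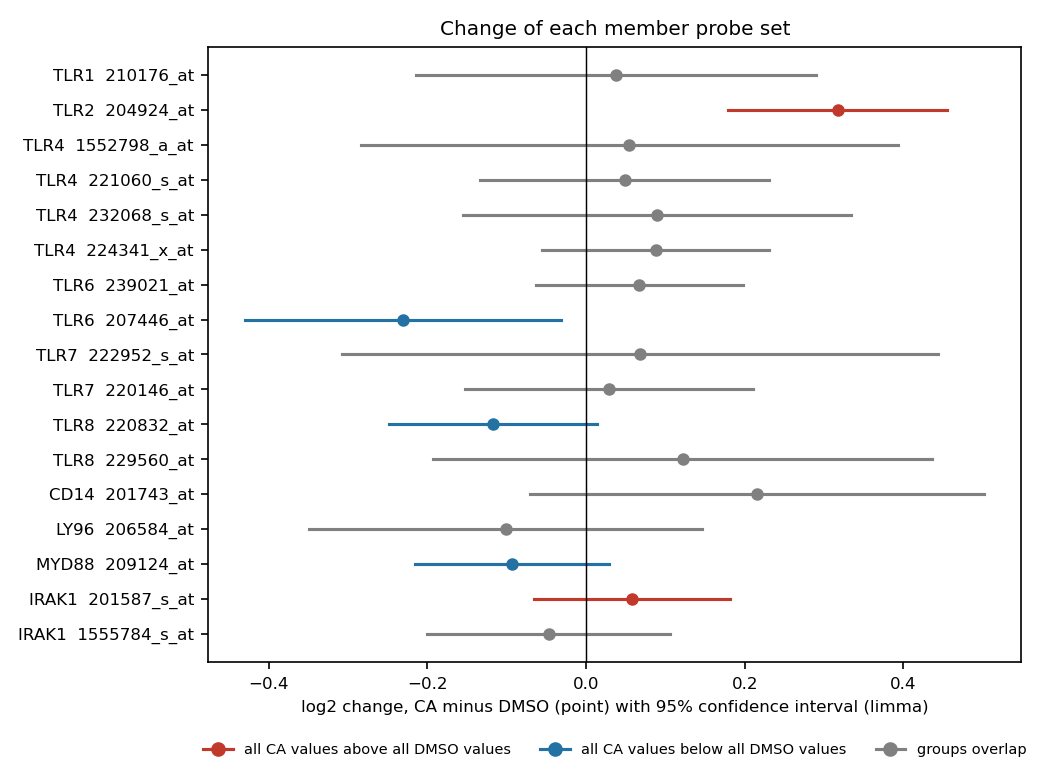
Log2 change of each of the 17 probe sets, CA minus DMSO (horizontal axis), with the 95% confidence interval from limma. The interval of TLR2 (0.18 to 0.46) and that of TLR6 at 207446_at (-0.43 to -0.032) leave out 0, and the colours show the 2 probe sets with all CA values above and the 3 with all CA values below DMSO.

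The other genes of the pathway were counted in 10 lists by role, with 69 entries of which 63 were measured at the brightest probe set of each gene. TICAM2, PIK3AP1, IRAK4, UBE2V1, RIPK1 and CCL3 were not analysed here. Over all genes 4 of the 63 rose and 0 fell (limma, adjusted p under 0.05), beside the 0.839% higher and 0.0556% lower of all 19775 genes. The lists were chosen with earlier results of these data known, so these shares do not measure an enrichment of the pathway. Their median log2 change was 0.0085, beside 0.0037 over all genes. Without an adjustment 7 were past 0.05 with CA higher and 5 with CA lower, beside 7.09% and 4.5% of all genes. The number that passed was 1, 1 and 2 without CA replicates 1, 2 and 3, and 1, 1 and 0 without DMSO replicates 1, 2 and 3. With the replicate number fitted as a block it was 0.

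Among 6 receptors of the IL-1 family, which use MYD88 through the same TIR domain contact as Toll-like receptors, IL1RAP rose. IL1RAP encodes the accessory chain shared by the receptors for IL-1 and IL-33. Its log2 values were 8.96, 8.95 and 8.87 in CA, against 8.59, 8.60 and 8.64 in DMSO. The groups did not overlap, and IL1RAP was 1.24-fold higher with CA (95% confidence interval 1.15 to 1.34, adjusted p = 0.0421 over all genes). The log2 change was 0.33 at a second probe set of IL1RAP, beside 0.31 at the one used. The call was narrow: the adjusted p was 0.119 over all probe sets and between 0.0592 and 0.24 with any 1 array left out. With the replicate number fitted as a block it was 0.165. None of the other 5, IL1R1, IL18R1, IL18RAP, IL1RL1 and IL1RL2, passed.

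None of the other receptors TLR3, TLR5, TLR9, TLR10 and CD180 passed over all genes. CD180, a relative of TLR4 that lacks the signalling domain and acts with LY86, had log2 values of 6.65, 6.55 and 6.57 in CA, against 6.32, 6.27 and 6.36 in DMSO. Its CA arrays all lay above its DMSO arrays, with a log2 change of 0.28 (95% confidence interval 0.16 to 0.40, adjusted p = 0.0884). CD180 passed limma when dim probe sets were left out (adjusted p = 0.03). It did not pass over all probe sets (adjusted p = 0.216), with any 1 array left out (0.142 to 0.341) or with the replicate number fitted as a block (0.188). TLR9, a receptor for DNA rich in CpG, had a log2 change of -0.24 (adjusted p = 0.478). Of the co-receptors, LY86 had a log2 change of 0.10 (adjusted p = 0.455) and CD36 one of 0.14 (adjusted p = 0.643), which was 0.237 without CA replicate 3 and between 0.08 and 0.176 with any other array left out. Of the chaperones that carry the receptors to their membranes, HSP90B1 and UNC93B1 had -0.098 and -0.082 (adjusted p = 0.507 and 0.549). The other probe set of HSP90B1 gave 0.14, and the mean of its probe sets gave 0.023.

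The measured adaptors, kinases, ubiquitin enzymes and transcription factors of the pathway gave no calls. Of 3 measured adaptors, TICAM1 had a log2 change of 0.04 (adjusted p = 0.799) and TIRAP one of 0.03 (adjusted p = 0.944). Of 8 IRAK kinases and ubiquitin enzymes, the ligase genes PELI1 and PELI3 had log2 changes of -0.25 and 0.22, and neither passed (adjusted p = 0.345 and 0.487). The other probe sets of PELI1 gave 0.09 and 0.05, and the mean of its probe sets gave -0.039. Of 10 kinases around TAK1 and IKK, TBK1 had a log2 change of -0.11 (adjusted p = 0.411). MAP3K8, the kinase that links NF-kB signalling to ERK, had 5.04, 4.78 and 4.30 in CA and 5.22, 5.22 and 5.04 in DMSO, with CA replicate 3 the lowest. Its log2 change was -0.45 (95% confidence interval -0.88 to -0.020, adjusted p = 0.412), and it was -0.248 without CA replicate 3 and between -0.615 and -0.418 with any other array left out. A second probe set of MAP3K8, equally bright, gave -0.36. Over all probe sets limma gave it an adjusted p of 0.211, beside 0.551 for the one used. Of 5 transcription factors, RELA and NFKB1 had 0.07 and 0.05 (adjusted p = 0.628 and 0.753).

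The other 3 calls were among negative regulators and inducible products. Of 6 negative regulators, TNFAIP3, a deubiquitinase that restrains NF-kB, rose with a log2 change of 0.43 (adjusted p = 0.0178). Of 13 inducible products, the cytokine TNF and the chemokine CXCL10 rose with log2 changes of 1.17 and 0.93 (adjusted p = 0.00419 and 0.0332), and 0 fell. TNFAIP3 passed without CA replicate 3 (adjusted p = 0.0313) but not with any other array left out (0.0949 to 0.123). CXCL10 passed in none of these 6 fits (0.0882 to 0.146), and TNF in all but the one without DMSO replicate 3 (0.0508). None of the 3 passed with the replicate number fitted as a block (adjusted p = 0.0604 for TNF, 0.112 for TNFAIP3 and 0.159 for CXCL10). Both TNFAIP3 and CXCL10 missed the threshold over all probe sets (adjusted p = 0.0501 and 0.0581).

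**Figure D4:**
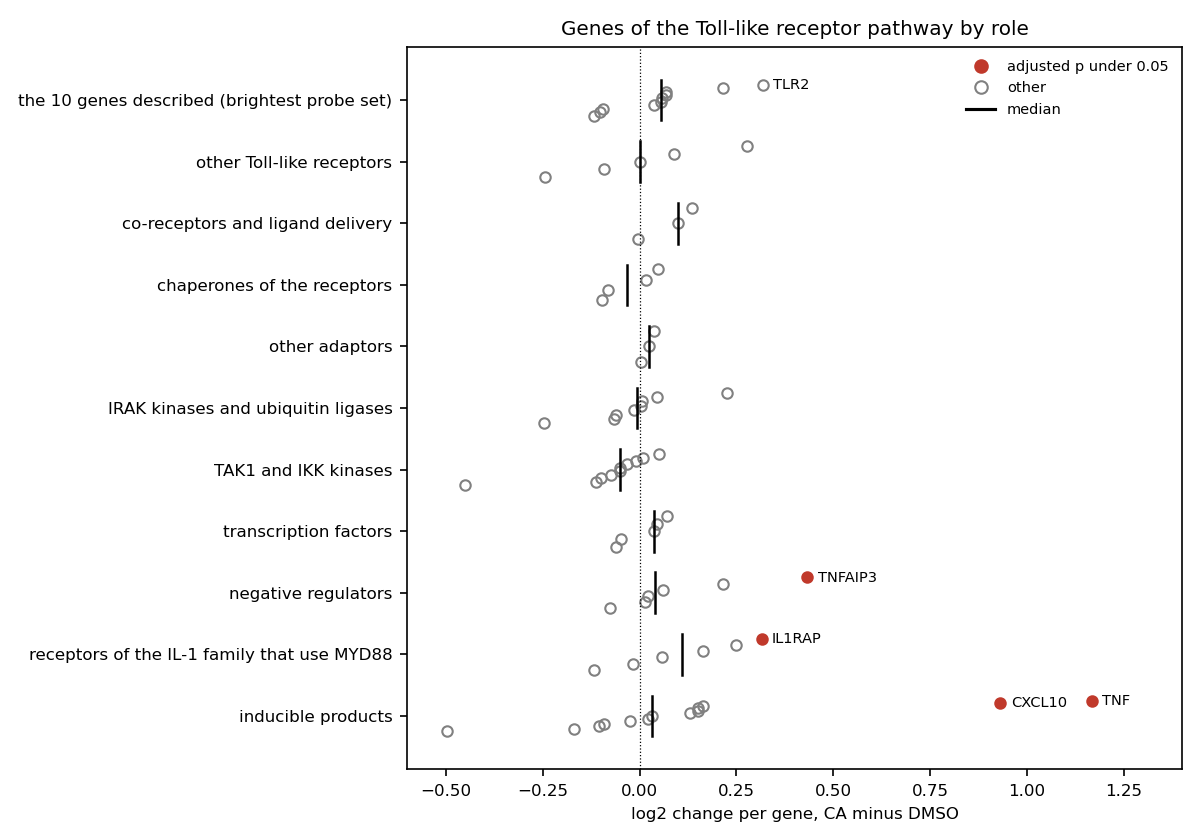
Log2 change per gene, CA minus DMSO (horizontal axis), for the 10 genes described and for 10 lists of other pathway genes; each circle is a gene at its brightest probe set, filled where the adjusted p was under 0.05, and a bar marks the list's median. The filled circles are TNFAIP3, IL1RAP, CXCL10 and TNF, while the 10 receptors and adaptors lie between -0.12 and 0.32.

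The genes whose values over the 6 arrays ran closest to those of TLR2 were RAB18, MINDY3 and NR3C1, with Pearson correlations of 0.998, 0.997 and 0.996. These are the highest of 19775 genes over 6 arrays that fall into 2 groups, and none of the 3 passed limma (adjusted p = 0.14, 0.65 and 0.0625). NR3C1, the glucocorticoid receptor gene, had log2 values of 11.15, 11.07 and 11.06 in CA, against 10.83, 10.81 and 10.81 in DMSO.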

How the data were processed

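The deposited table holds log2 values, 1 per probe set and array, which the authors computed with affy by RMA, per the submitters' processing notes. Which of the 2 RNA isolation reagents in the labels served which sample is unknown. The sources used here do not give versions, probe annotation, scan dates or batches. RMA normalises arrays to each other, so a shift common to every gene would not show. The number of arrays limits the precision. Values were used as deposited. Of 54675 probe sets, 62 controls were left out; symbols came from the platform annotation. limma 3.58.1 (lmFit, eBayes; R 4.3.3) tested CA against DMSO, two-sided, with Benjamini-Hochberg adjustment over 54613 probe sets, and again over 19775 genes at the brightest single-symbol probe set. Groups came from the sample titles. Exact permutation tests of probe set pairs used scipy 1.17.1. The main limma fits, over probe sets and over genes, were tested on simulated data. Same-numbered arrays deviated together with correlations of 0.081, 0.192 and 0.26, against -0.225 to 0.083 for arrays of different numbers. No label states a pairing, so the main fits did not pair samples. Whether the numbers mark a pairing is not settled by these values.

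The members, the lists and the tests were chosen with earlier results of these data known, and the promoter motifs after the expression values were seen. Every member probe set was named. Of each pathway list, the genes past the threshold, up to 4, or else the 2 with the smallest p were named; for the member gene with the smallest p, the 3 genes with the highest correlation. EPCAM, KRT18 and other markers are given as levels. Alternatives were the replicate block, each array left out, an intensity trend with a robust fit, array weights, median centring, a filter on dim probe sets, probe set types and the mean of probe sets. A comparison of member proteins that was planned is not analysed here.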

Additional observations from a re-analysis of the deposited data

How the results depend on the processing

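None of the 17 probe sets passed under any alternative except TLR2, which made the count 1 with an intensity trend and robust fit and 1 without dim probe sets (5 of the 17 tested). Per gene the count was 1, again TLR2, under these settings and with array weights (adjusted p = 0.0296). With any array left out, both counts stayed at 0 (lowest and highest 0). Over all probe sets, 120 were called, against 740 with the trend, 196 with array weights, 383 without dim probe sets, 47 with plain _at probe sets only and 0 to 6 with any array left out. Over all genes, 177 were called, against 546 with the trend, 351 without dim probe sets, 74 with plain _at probe sets and 1 to 112 with any array left out. Of the pathway genes, 4 passed, against 5 with the trend, 5 without dim probe sets, 1 with plain _at probe sets and 0 to 2 with any array left out. With the replicate number as a block, 1 probe set, 6 genes and 0 pathway genes were called, and TLR2 had an adjusted p of 0.266. CA replicate 1 deviated about equally like DMSO replicates 1 and 2 (0.081 and 0.083). CA replicates 2 and 3 deviated most like the DMSO array of their own number (0.192 and 0.26).

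The sign turned for values that had not passed: TLR7 at -0.015 (222952_s_at) and -0.013 (per gene) with array weights, and, per gene with the mean of probe sets, TLR6 at -0.082, TLR8 at 0.002, HSP90B1 at 0.023 and TIRAP at -0.01. With any array left out, log2 changes ran from -0.077 to 0.106 for TLR1, -0.064 to 0.179 (1552798_a_at), -0.008 to 0.11 (221060_s_at) and -0.027 to 0.167 (232068_s_at) for TLR4, -0.093 to 0.178 (222952_s_at) and -0.022 to 0.085 (220146_at) for TLR7, -0.001 to 0.237 for TLR8 (229560_at), -0.179 to 0.013 for LY96, -0.092 to 0.0 for IRAK1 (1555784_s_at) and -0.05 to 0.112 for TIRAP. The cause was not tested.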

Other observations

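Among genes that Toll-like receptor signals induce, PTGS2, which encodes the prostaglandin-making cyclooxygenase COX-2 and was chosen once its values were known, differed the other way from TNF. Its log2 values were 4.48, 5.04 and 4.65 in CA, against 5.21, 5.31 and 5.14 in DMSO. The CA arrays lay below the DMSO arrays without overlap, but the log2 change of -0.50 (95% confidence interval -0.84 to -0.16) did not pass limma over all genes (adjusted p = 0.265). PTGS2 was dim, with a mean log2 value of 4.97, under the 5 of the filter on dim probe sets. Of the 13 inducible products, 8 had positive and 5 had negative log2 changes. NFKBIA, the inhibitor of NF-kB that its signal induces, chosen likewise, had 8.96, 8.87 and 8.94 in CA, against 8.70, 8.74 and 8.68 in DMSO, with a log2 change of 0.22 (adjusted p = 0.146).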
